A study of Rattus norvegicus with 372 samples.

Results

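Indomethacin at 12 µM, the lower of the 2 concentrations tested, was compared with vehicle in primary rat hepatocytes. The wells were chosen by their labels: chemical indomethacin, 12 µM, both batches, 3 wells per batch, set against every vehicle well of the same batch. They make 12 of the 372 libraries of the series, 6 by the WT assay (22253 probes) and 6 by the ST assay (2654 probes) on lysate of the same wells. The hepatocytes of each batch came from 1 rat, which makes its 3 wells technical replicates and leaves 2 biological replicates, the batches. All wells used here were kept in collagen sandwich, carried 0.5% DMSO and were exposed for 24 h, with the drug as the only added difference between 12 µM wells and vehicle. The vehicle group had 3 wells in batch 1 and 6 wells in batch 2. In batch 1 the indomethacin wells were on plate 5 and the vehicle wells on plate 4, so that plate and treatment cannot be told apart there, while in batch 2 the indomethacin wells and 3 of the 6 vehicle wells shared plate 3. The wells of 300 µM indomethacin, which were on the same plates as those of 12 µM, are given beside them.

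Indomethacin is a nonsteroidal anti-inflammatory drug that blocks both cyclooxygenases, the enzymes that begin prostaglandin synthesis from arachidonic acid. Hepatocytes make cholesterol from acetyl-CoA through mevalonate, isoprenoid and sterol intermediates. The genes of this route are transcribed together under SREBP2, a membrane-bound factor that INSIG proteins hold in the endoplasmic reticulum while sterols are plentiful, and that acts in the nucleus beside NF-Y, a factor that binds CCAAT boxes. SREBP1 has a like role for fatty acid synthesis, and PPARα for fatty acid oxidation.

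Because the cholesterol synthesis genes moved together, the promoters of the 3 whose values are given most fully here and that had a RefSeq entry (rat build GRCr8) are shown. Each run is the 250 bases before the annotated start of transcription, 5′ to 3′ on the gene's strand, with the CCAAT box (letters CCAAT, searched on both strands, so also ATTGG) in capitals. The window of Fdps lies at chr2:176804817-176805066 on the minus strand, that of Idi1 at chr17:66547525-66547774 on the minus strand and that of Insig1 at chr4:8057770-8058019 on the minus strand.
Fdps: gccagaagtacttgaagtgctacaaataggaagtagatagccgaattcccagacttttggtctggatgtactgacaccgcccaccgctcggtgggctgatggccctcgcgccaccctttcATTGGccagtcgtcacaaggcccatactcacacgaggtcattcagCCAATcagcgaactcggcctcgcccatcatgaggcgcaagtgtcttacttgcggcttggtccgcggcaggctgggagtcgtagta
Idi1: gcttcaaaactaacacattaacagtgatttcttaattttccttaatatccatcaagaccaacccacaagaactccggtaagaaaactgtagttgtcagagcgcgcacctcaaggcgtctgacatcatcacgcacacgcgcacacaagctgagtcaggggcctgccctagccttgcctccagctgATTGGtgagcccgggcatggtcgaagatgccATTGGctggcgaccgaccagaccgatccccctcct
Insig1: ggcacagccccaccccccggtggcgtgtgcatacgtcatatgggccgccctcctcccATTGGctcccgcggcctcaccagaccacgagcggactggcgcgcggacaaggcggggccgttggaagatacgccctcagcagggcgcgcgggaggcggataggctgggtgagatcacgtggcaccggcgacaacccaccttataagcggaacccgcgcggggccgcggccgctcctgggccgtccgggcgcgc
The boxes of Fdps began 130 and 85 bases before the start, those of Idi1 66 and 35 bases, and that of Insig1 193 bases. Of the 19 cholesterol synthesis genes tested, 13 had an entry, and 11 of these (84.6%) held a CCAAT box in this window, against 35.6% of the 8378 promoters of all genes tested. A short form of the sterol regulatory element, TCACNCCAC, with N for any base, was in 0 of the 13 windows and in 1.05% of the 8378. The second count says only that these letters are not in these windows.

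A DEG is a gene with an adjusted p under 0.05 by edgeR, and L2FC is the log2 fold change of 12 µM indomethacin against vehicle. By WT assay with both batches in the fit, 598 of 10191 genes were DEGs (5.87%), of which 596 (5.85%) had the same sign of L2FC in each batch fitted alone. Of these 596, 359 rose (3.52%) and 237 fell (2.33%). The changes were small, with a median L2FC of 0.52 among genes that rose and of -0.47 among genes that fell. An absolute L2FC of at least 1 was reached by 38 of the genes that rose and 11 of those that fell. Batch 1 alone gave 153 DEGs (1.5%), of which 130 were higher (1.28%) and 23 lower (0.226%). Batch 2 alone gave 543 (5.33%), of which 299 were higher (2.93%) and 244 lower (2.39%). The 2 batches shared 60 DEGs (0.589%), all with the same sign in both, 55 higher (0.54%) and 5 lower (0.0491%). The difference between the batches passed the test for 5 genes (0.0491%). The p-values of the fits by batch measure the spread between wells of 1 animal. In the fit over both batches the spread also takes in how treatments differed between the batches, and it rests on 2 animals. Against 4 other low concentrations on the same plates in place of vehicle, 54 genes were called (0.53%), and without replicate 2 of the 12 µM wells of batch 2 the 598 DEGs became 324. Leaving out 1 well at a time moved the count of batch 1 to as low as 49 (without replicate 3 of 12 µM), that of batch 2 to 172 or 824 (without replicate 2 or 3 of 12 µM) and the 60 shared DEGs to as low as 32 (without replicate 3 of 12 µM in batch 1).

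**Figure D1:**
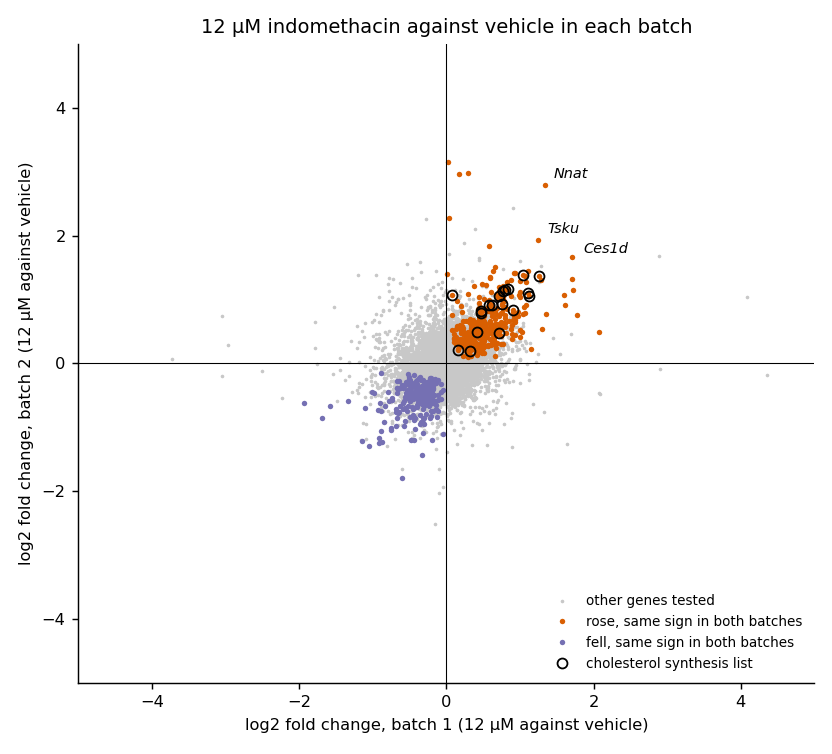
L2FC of 12 µM indomethacin against vehicle in batch 1 (x axis) and batch 2 (y axis), 1 point per gene of the 10191 tested by WT assay. Coloured points are the 596 DEGs of both batches with the same sign in each, and rings are the 19 cholesterol synthesis genes tested, all of which lie right of and above 0.

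The clearest group was cholesterol synthesis. All 19 members tested rose, with a median L2FC of 0.94 (range 0.21 to 1.40), where 3.53% of all genes rose and the median over all genes was 0.01. The other 5 of the 24 listed genes were not tested, 2 for low counts and 3 for want of a probe of that symbol. L2FC was above 0 for all 19 in batch 1 and in batch 2. In batch 1 alone 9 members rose, and the same 9 were among the 16 that rose in batch 2 alone.

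Idi1 interconverts the first isoprenoid building blocks of the route. Its level in batch 1 was 17.9, 23.4 and 17.9 CPM (counts scaled to library size with TMM factors) in the vehicle wells and 41.7, 39.7 and 39.1 CPM in the 12 µM wells. In batch 2 it ranged from 5.23 to 9.55 CPM in the vehicle wells (median 6.81) and was 18.6, 18.3 and 17.6 CPM at 12 µM. Every treated well was above every vehicle well of its batch, although the vehicle level itself was higher in batch 1 than in batch 2. L2FC was 1.28 ± 0.20 (SE, adjusted p = 1.2e-06).

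Fdps joins these blocks into farnesyl diphosphate. In batch 1 it was at 78.3, 65.5 and 75.7 CPM with vehicle and at 205, 143 and 170 CPM with indomethacin. In batch 2 the vehicle wells ran from 38.4 to 59.5 CPM (median 46.3) and the treated wells read 133, 141 and 96.3 CPM. The groups did not overlap in either batch, and Fdps had the highest L2FC of the list, 1.40 ± 0.18 (adjusted p = 2.42e-09). Fdft1, which makes squalene from farnesyl diphosphate, rose by 0.94 ± 0.15 (adjusted p = 3.36e-06). Sqle, squalene epoxidase, was at 83.2, 74.1 and 83.2 CPM with vehicle and at 189, 181 and 144 CPM with indomethacin in batch 1. In batch 2 it was between 32.2 and 51.7 CPM with vehicle (median 42.7) and at 92.4, 107 and 76.6 CPM with indomethacin. Its L2FC was 1.17 ± 0.17 (adjusted p = 9.84e-08), with no overlap of wells in either batch.

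Insig1, the sterol-sensing brake on SREBP and itself one of its targets, also rose. It read 623, 713 and 722 CPM in the vehicle wells of batch 1 and 1284, 1133 and 1194 CPM at 12 µM. In batch 2 vehicle wells were at 540 to 966 CPM (median 637) and treated wells at 1471, 1635 and 1593 CPM. Treated wells were again above all vehicle wells of their batch, and L2FC was 1.02 ± 0.14 (adjusted p = 1.07e-08). Srebf2, which encodes SREBP2 and is named here after its value was seen, had the lowest L2FC of the 19, 0.21 ± 0.06 (adjusted p = 0.0116).

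Acat2, a thiolase that condenses acetyl-CoA at the head of the route and that was not on the list, rose by 1.18 ± 0.17 (adjusted p = 1.84e-07). It was at 28.4, 41.8 and 30.9 CPM with vehicle and 69.3, 55.9 and 58.7 CPM with indomethacin in batch 1. In batch 2 it was at 11.8 to 17.8 CPM with vehicle (median 13.4) and at 37.9, 39.3 and 28.8 CPM with indomethacin.

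**Figure D2:**
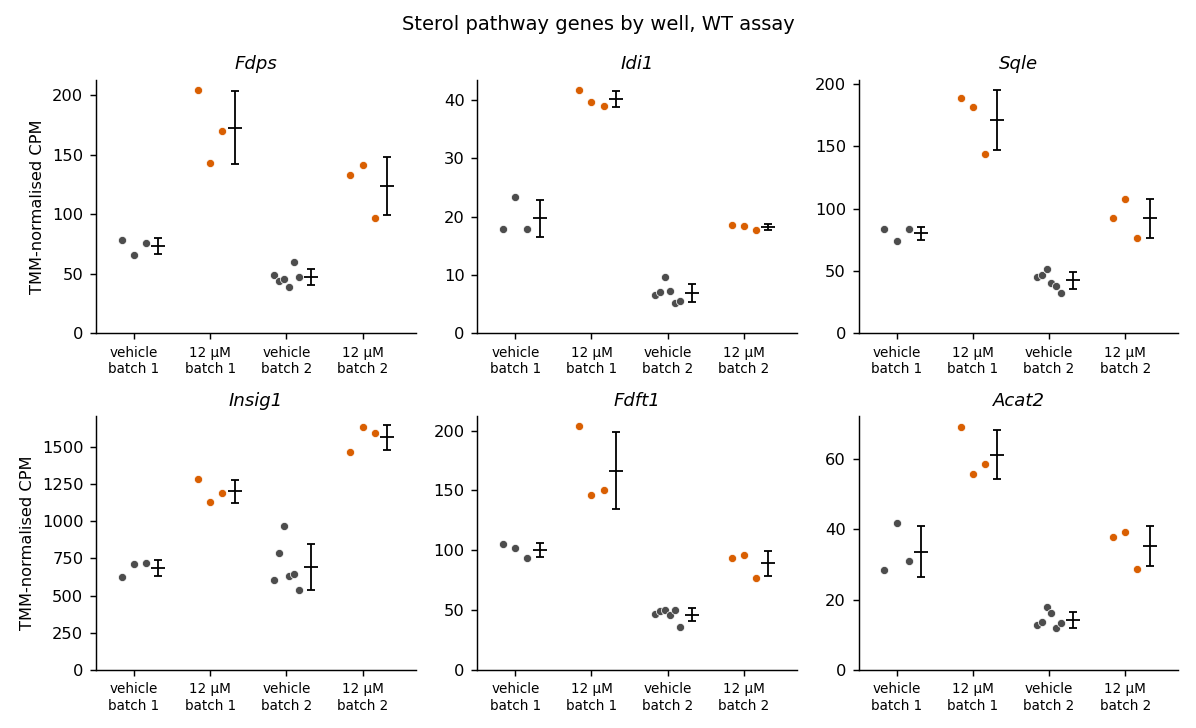
TMM-normalised CPM (y axis, from 0) of 6 genes in each WT well of vehicle (grey) and 12 µM indomethacin (orange) in both batches, with the mean ± SD to the right of the points (n = 3 wells, or 6 for vehicle in batch 2). In all 6 panels the treated wells lie above the vehicle wells of the same batch.

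The size of this rise depended on the reference. Acetaminophen at 400 µM, chloramphenicol at 18 µM, ketoconazole at 0.6 µM and sulfasalazine at 4 µM were on the same plates as indomethacin in both batches. WY14643, a PPARα agonist whose low concentration was also on these plates, was left out of this reference. Against the mean of those 4 treatments, the median L2FC of the 19 genes was 0.50 (0.58 in batch 1 and 0.43 in batch 2), all 19 stayed above 0 in both batches, and 10 passed the test, where 51 of all genes did in that direction (0.5%). The 4 treatments are drugs in their own right and no second vehicle. They were themselves above vehicle, by a median of 0.42 over the 19 genes. How much of that came from these drugs and how much from the plate was not tested. With the vehicle wells of plate 3 as the only reference in batch 2, the median there was 1.00, against 0.93 with all 6 vehicle wells, and 14 members rose in place of 16. The vehicle wells of plate 3 were lower than those of plate 2 by a median of 0.16 over the list, and no gene differed between these plates at an adjusted p under 0.05 (0%), while 1423 genes (14%) did at an unadjusted p under 0.05.

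**Figure D3:**
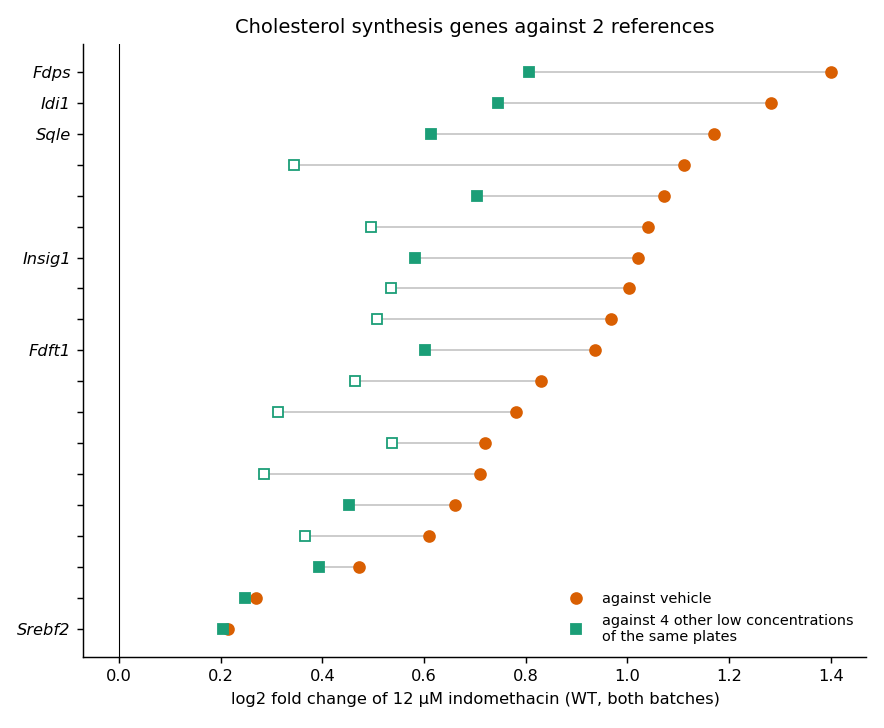
L2FC of 12 µM indomethacin for the 19 cholesterol synthesis genes tested, against vehicle (circles) and against 4 other low concentrations on the same plates (squares), WT assay, both batches, with the genes described in the text labelled. Filled marks passed the test (19 and 10), and every gene is above 0 on both scales.

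In fatty acid synthesis 7 of 13 members tested rose, against 3.53% of all genes, and none fell, with a median L2FC of 0.63. Scd, the stearoyl-CoA desaturase that makes monounsaturated fatty acids, rose by 1.10 ± 0.18 (adjusted p = 7.16e-06). Its wells were at 18.9, 21.4 and 10.9 CPM with vehicle and 27.9, 33.9 and 28.4 CPM with indomethacin in batch 1, and at 9.13 to 20.4 CPM (median 13.0) and 36.1, 39.6 and 27.8 CPM in batch 2. Thrsp, a lipogenic nuclear protein that follows carbohydrate and thyroid hormone, rose by 1.09 ± 0.16 (adjusted p = 2.38e-07). Treated wells of both genes were above all vehicle wells of their batch. Fasn, fatty acid synthase, rose by 0.72 ± 0.16 (adjusted p = 0.00203), from a mean of 66.1 ± 6.43 to 93.1 ± 8.80 CPM in batch 1 (SD, n = 3 each) and from 25.1 ± 2.35 (n = 6) to 42.3 ± 2.68 CPM (n = 3) in batch 2. Against the 4 other low concentrations, 5 of the 13 rose, Scd (0.59) and Thrsp (0.59) among them, with a median of 0.45, and Fasn did not pass (0.45, adjusted p = 0.124).

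Genes of fatty acid oxidation, many of which are PPARα targets, rose in smaller number. On the list of omega hydroxylation and peroxisomal oxidation 3 of 13 rose (median L2FC 0.43), and on that of mitochondrial oxidation and ketogenesis 6 of 17 (median 0.26), against 3.53% of all genes, with none lower on either. Ehhadh, the peroxisomal bifunctional enzyme, had an L2FC of 1.25 ± 0.35 (adjusted p = 0.0152). It was at 3.00, 1.96 and 0.853 CPM with vehicle and 5.87, 7.90 and 6.82 CPM with indomethacin in batch 1, and at 0.713 to 2.46 CPM and 1.97, 2.16 and 4.20 CPM in batch 2, where the groups overlap. Cat, catalase, rose by 0.53 ± 0.11 (adjusted p = 0.0003725) and Decr1, a mitochondrial reductase for unsaturated fatty acids, by 0.56 ± 0.12 (adjusted p = 0.00062). In batch 2 alone 3 members of each list rose, and with same-plate vehicle wells 2 and 1 did. Against the 4 other low concentrations no member of either list passed the test, the medians were -0.01 and 0.07, and Ehhadh stood at -0.12.

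In the other lists at most 3 members passed the test, where 3.53% of all genes rose. Of 7 AhR targets tested 3 rose (median L2FC 0.47), among them Cyp1a2 (0.88 ± 0.19, adjusted p = 0.00062) and Cyp1a1 (0.87 ± 0.20, adjusted p = 0.00267), both cytochromes of planar aromatic compounds. Their wells overlapped in batch 2 for Cyp1a2 and in batch 1 for Cyp1a1. Of 6 UDP-glucuronosyl and sulfotransferases 2 rose, Ugt2b17 and Ugt2b15, and all 6 had an L2FC above 0 (median 0.50). In bile acid synthesis and transport 1 of 9 rose, Acox2, the peroxisomal oxidase of bile acid side chains (0.78 ± 0.18, adjusted p = 0.00203). Of the lipid nuclear receptors and cofactors 2 of 13 rose (Nr1i2 and Rxra), and so did 2 of 14 genes of lipid droplets and fatty acid uptake (G0s2 and Slc27a2), 2 of 15 of hypoxia and glycolysis (Vegfa and Pdk1) and 1 of 16 of the integrated stress response (Psat1). A single member fell on each of 3 lists, Txn1 among 14 NRF2 antioxidant genes, Psmb8 among 15 interferon stimulated genes and Cxcl16 among 14 chemokines and NF-kB feedback genes, where 2.34% of all genes fell. By WT assay no member passed the test among 9 CAR and PXR targets, 9 endoplasmic reticulum chaperones, 13 p53 targets, 13 clock genes, 14 cell cycle genes, 17 immediate early factors or 3 metallothionein and zinc export genes. These 9 CAR and PXR targets were part of 19 listed, and Cyp3a1, Cyp3a2 and Abcb1a, among others, had no WT probe of that symbol. Of the 15 genes named above as higher or lower, Cyp1a2 (L2FC 0.63, adjusted p = 0.0219) and Acox2 (0.58, adjusted p = 0.0382) also passed against the 4 other low concentrations, while the other 13 did not (adjusted p from 0.0667 to 0.873). With same-plate vehicle wells in batch 2 alone, the risers of bile acid synthesis and transport went from 3 to 0, those of UDP-glucuronosyl and sulfotransferases from 2 to 0, and those of lipid droplets and fatty acid uptake from 2 to 0.

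**Figure D4:**
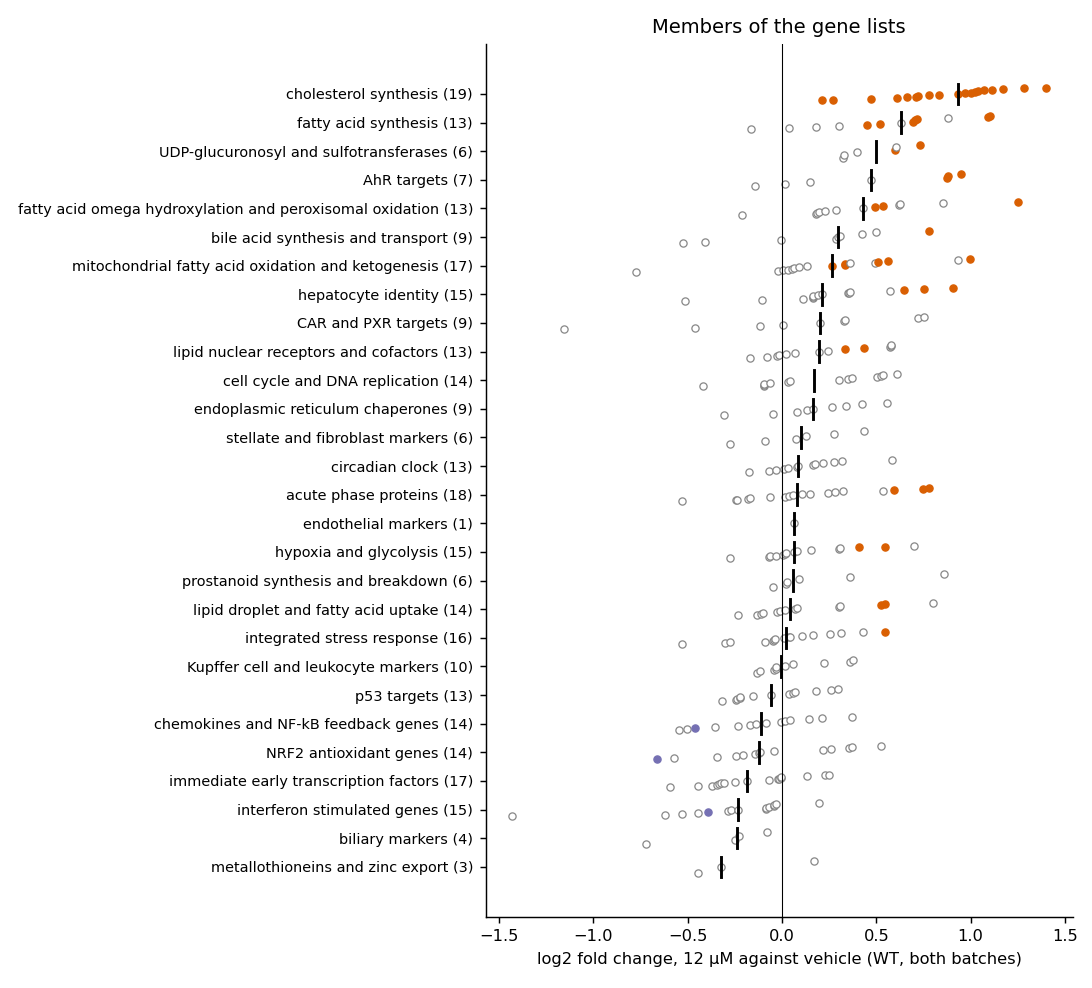
L2FC of each list member tested by WT assay (x axis), 1 row per list with the number tested in brackets. Orange points rose, purple points fell, open points did not pass the test, and black bars are medians. The bar of cholesterol synthesis is farthest right, at 0.94.

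Of the enzymes the drug blocks, Ptgs1 (COX-1) was at a low level. It was at 1.56, 3.39 and 2.22 CPM with vehicle and 2.35, 2.70 and 3.41 CPM with indomethacin in batch 1, and at 0.939 to 2.60 CPM and 1.85, 1.39 and 3.39 CPM in batch 2. The wells overlapped in both batches, and L2FC was 0.09 ± 0.28 (adjusted p = 0.898). Ptgs2 (COX-2), with at most 13 WT counts in a vehicle well and 11 in a treated well, was below the filter of a mean of 10 counts and was not tested. In batch 2 it had a count in 1 of the 6 vehicle wells and in all 3 treated wells, at 0.154 to 0.647 CPM, while the wells of batch 1 overlapped. Replicate 1 of these treated wells had counts at 16268 WT probes, where the other 12 µM and vehicle wells had 12988 to 14163. The part of this in genes at low levels was not tested. None of the 6 members tested of prostanoid synthesis and breakdown passed the test, and the prostanoid receptors with probes were all below the filter.

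The largest single change of a gene with a standard symbol was that of Nnat, neuronatin, a small membrane protein of the endoplasmic reticulum. It was at 5.77, 3.04 and 2.73 CPM with vehicle and 7.93, 8.47 and 12.9 CPM with indomethacin in batch 1, and at 5.21 to 8.50 CPM (median 6.76) and 38.1, 47.4 and 57.2 CPM in batch 2. Treated wells were above vehicle wells in both batches, and L2FC was 2.30 ± 0.30 (adjusted p = 2.26e-09), although batch 1 alone did not pass (adjusted p = 0.111). Ces1d, a carboxylesterase that cleaves esters and triglyceride, rose by 1.71 ± 0.21 (adjusted p = 1.64e-10). Its wells were at 8.89, 10.0 and 9.21 CPM with vehicle and 32.0, 23.5 and 35.2 CPM with indomethacin in batch 1, and at 9.15 to 15.7 CPM (median 12.8) and 34.2, 52.2 and 36.4 CPM in batch 2. The L2FC of Ces1d was nearly equal in the batches, 1.71 and 1.67. Tsku, tsukushi, a protein secreted by the liver, rose by 1.66 ± 0.19 (adjusted p = 1.13e-11), from 66.5, 57.7 and 54.9 to 135, 155 and 131 CPM in batch 1 and from 40.5 to 53.1 (median 49.3) to 168, 197 and 189 CPM in batch 2. Sult2a2, a sulfotransferase of bile acids and steroids, rose by 1.61 ± 0.27 (adjusted p = 7.4e-06). Against the 4 other low concentrations Nnat (1.57), Ces1d (0.70) and Tsku (0.74) passed the test at smaller L2FC, and Sult2a2 did not (0.66, adjusted p = 0.184).

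The genes with the smallest adjusted p in both batches also held Csad, which makes hypotaurine on the way to taurine (L2FC 1.25 ± 0.15, adjusted p = 4.48e-11), and Amy1a, an amylase (1.20 ± 0.15, adjusted p = 4.37e-10). Others called in each batch were Apoc1, an apolipoprotein (0.64 ± 0.12), Ttpa, which carries vitamin E (0.72 ± 0.11), and Hsd17b13, a lipid droplet enzyme (0.83 ± 0.14). Fahd1, a mitochondrial hydrolase, rose by 0.87 ± 0.12. For each of these 6 genes the treated wells were above the vehicle wells in both batches, and against the 4 other low concentrations Csad, Amy1a and Fahd1 passed the test while Apoc1, Ttpa and Hsd17b13 did not (adjusted p from 0.0842 to 0.143). Lower in rank by adjusted p but among the largest L2FC were Abhd15 (1.35), Sgo2 (1.35), Tex49 (1.25) and Mrps36 (1.23), each at low levels. None of these passed against the 4 other low concentrations, where L2FC was 0.75, 0.28, 0.75 and 0.46 (adjusted p = 0.314, 0.814, 0.143 and 0.612).

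Hepatocyte genes were high throughout, as the labels give, with Alb at 10300 to 14300 CPM in vehicle wells and 12500 to 16200 CPM in 12 µM wells. The summed level of the 15 hepatocyte identity genes with probes was 35760 to 40540 CPM with vehicle and 46310 to 59170 CPM with indomethacin in batch 1, and 37530 to 42960 against 42380 to 46730 CPM in batch 2, where the ranges overlap. Of these 15 genes 3 rose: Cyp2c11, Cps1, the first enzyme of the urea cycle (0.75 ± 0.16, adjusted p = 0.000563), and Serpina1. Of 18 acute phase proteins 3 rose: Lcn2, A2m and Orm1. Both counts stand beside 3.53% of all genes that rose. Against the 4 other low concentrations Cps1 passed the test (L2FC 0.58, adjusted p = 0.0116), while Cyp2c11, Serpina1 and the 3 acute phase genes did not (adjusted p from 0.19 to 0.873). In batch 2 alone 4 acute phase genes rose against all vehicle wells (median over the list 0.12) and 0 against those of the same plate (median -0.04). The part of hepatocyte content in these counts was not tested, and fewer cells of a type cannot be told from less RNA per cell in such lysates. No Kupffer cell and leukocyte marker (10 tested), stellate and fibroblast marker (6), biliary marker (4) or endothelial marker (1) passed the test. The Kupffer and leukocyte sum over 16 genes was 156 to 208 CPM with vehicle and 173 to 230 CPM with indomethacin in batch 1, and 118 to 155 against 132 to 146 CPM in batch 2. Stellate and fibroblast markers summed to 340 to 435 against 428 to 492 CPM in batch 1 and to 127 to 204 against 136 to 166 CPM in batch 2, endothelial markers to 22.5 to 27.0 against 25.5 to 29.3 CPM and to 23.8 to 29.0 against 26.8 to 29.4 CPM, and biliary markers to 115 to 130 against 102 to 108 CPM and to 122 to 142 against 118 to 128 CPM. Krt7 was at 0 in all 15 wells, and Ptprc had at most 7 counts in a well.

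The 12 genes with a standard symbol that fell most were at low levels, under 20 CPM in every vehicle well of batch 2. Of the 237 genes that fell, 2 were also called lower against the 4 other low concentrations, and none of these 12 was among them. Cdh13, a cadherin, was at 6.13, 8.39 and 9.55 CPM with vehicle and 4.11, 5.01 and 3.56 CPM with indomethacin in batch 1, and at 14.9 to 19.0 CPM (median 17.7) and 9.97, 6.62 and 8.08 CPM in batch 2. It fell by 1.02 ± 0.16 on the log2 scale (adjusted p = 2.89e-06), and Tmod1, which caps actin filaments, by 1.14 ± 0.25 (adjusted p = 0.00122). The treated wells of both were below all vehicle wells of their batch. Of these 12, 9 more were Lrguk, Cpeb1, Slc16a6, Zdhhc7, Ulk4, Parp8, Igsf3, Adamtsl5 and Nppb, with L2FC between -0.96 and -1.25. None of these 9 was called in batch 1 alone, and neither was Cdh13 (adjusted p = 0.0558) or Tmod1 (adjusted p = 0.343). Nppb turned to 0.18 against the 4 other low concentrations (adjusted p = 0.888).

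Of the 5 genes called lower in each batch, 1 has no standard symbol. The other 4 are named here after their values were seen. Noct, a rhythmic phosphatase of NADP cofactors, was at 77.4, 75.7 and 90.7 CPM with vehicle and 49.0, 56.8 and 49.0 CPM with indomethacin in batch 1, and at 63.0 to 80.6 CPM and 48.4, 47.3 and 41.9 CPM in batch 2. Its L2FC was -0.66 ± 0.13 (adjusted p = 0.000194). Rgs2, which damps signalling of G protein-coupled receptors, had an L2FC of -0.73 ± 0.17, Sdcbp2, a syntenin, of -0.73 ± 0.18, and Dapk2, a death-associated kinase, of -0.45 ± 0.11. The wells of Noct, Dapk2 and Sdcbp2 did not overlap between groups in either batch, while those of Rgs2 did in batch 2. None of the 4 passed the test against the 4 other low concentrations, with an L2FC of -0.20 for Noct (adjusted p = 0.607), -0.22 for Rgs2 (0.675), -0.31 for Sdcbp2 (0.536) and -0.29 for Dapk2 (0.169).

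At 300 µM the same plates held a different pattern. Cell type markers moved with it. Against vehicle 8 of 10 Kupffer and leukocyte markers, 5 of 6 stellate and fibroblast markers and 3 of 4 biliary markers fell, where 27.6% of all genes did. The hepatocyte identity sum was 30240 to 33890 CPM in batch 1 and 23470 to 28670 CPM in batch 2. Both ranges lay below every vehicle well of their batch. Member by member, however, 6 of the 15 hepatocyte identity genes rose against vehicle (27.1% of all genes did) and 3 fell. Their median L2FC at 300 µM was 0.28. The part of cell content in the 300 µM values was not tested. Both concentrations share the vehicle wells, so their L2FC are given side by side, and the test is of 300 against 12 µM, by which 4387 genes differed (43%). Of the 359 genes that rose at 12 µM with the same sign in each batch, 110 were higher still at 300 µM, 87 were lower than at 12 µM and 162 did not pass that test. Of the 237 that fell, 136 were lower still at 300 µM, 26 were higher and 75 did not pass.

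Cholesterol synthesis genes did not follow the concentration. Their median L2FC was 0.94 at 12 µM and 0.61 at 300 µM, 12 of the 19 rose at 300 µM against vehicle (27.1% of all genes did), 1 was higher at 300 than at 12 µM (20.5% of all genes were) and 7 were lower (22.5%). Insig1 was the 1 that was higher, at 2490 to 2914 CPM in batch 1 and 2930 to 3532 CPM in batch 2 (difference 1.10 ± 0.155 on the log2 scale, adjusted p = 6.34e-10). Idi1, at 11.4 to 13.2 CPM in batch 1 and 5.89 to 10.3 CPM in batch 2, was below every vehicle well of batch 1 and overlapped those of batch 2 (difference from 12 µM -1.39 ± 0.23, adjusted p = 7.58e-08). Acat2, with 18.5 to 23.8 CPM in batch 1 and 17.4 to 24.5 CPM in batch 2, likewise was lower than at 12 µM (difference -1.14 ± 0.19, adjusted p = 2.31e-07). Against vehicle, the L2FC of these genes at 300 µM differed in sign between batches 1 and 2. It was -0.62 and 0.39 for Idi1 and -0.58 and 0.57 for Acat2. It was above 0 in both for Sqle (0.20 and 1.17), Fdft1 (0.64 and 1.20), Fdps (1.07 and 1.75) and Insig1 (2.01 and 2.27). The batch difference at 300 µM was not tested. For Fdps the difference was 0.04 ± 0.20 (adjusted p = 0.883), with an L2FC of 1.44 at 300 µM.

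Oxidation genes did the opposite. All 13 tested of omega hydroxylation and peroxisomal oxidation and 16 of 17 of mitochondrial oxidation and ketogenesis were higher at 300 than at 12 µM, where 20.5% of all genes were, and their median L2FC at 300 µM was 2.77 and 1.91. Ehhadh reached 129 to 191 CPM in batch 1 and 55.3 to 84.7 CPM in batch 2, an L2FC of 5.78. Scd (2.39) and Tsku (3.77) also had a higher L2FC at 300 µM, and both differences passed the test. Nnat was at 1.03 to 2.21 CPM over the 6 wells of 300 µM, an L2FC of -1.86 against 2.30 at 12 µM (difference -4.16 ± 0.41, adjusted p = 2.48e-17). Ces1d was at 0.38 against 1.71 (difference -1.32 ± 0.23, adjusted p = 3.65e-07), A2m at -0.92 against 0.75 and Apoc1 at -0.44 against 0.64, each lower at 300 than at 12 µM by the test.

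**Figure D5:**
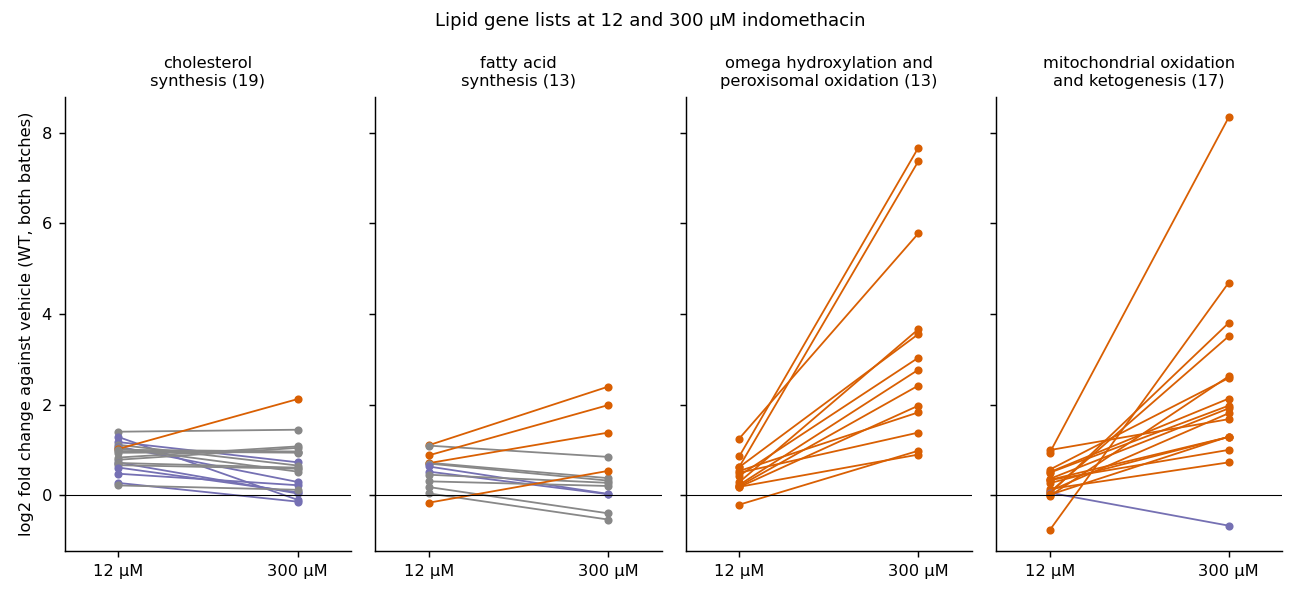
L2FC against vehicle at 12 µM and at 300 µM indomethacin (WT assay, both batches), 1 line per gene, for 4 lists of lipid metabolism with the number tested in brackets. Orange lines are higher and purple lines lower at 300 than at 12 µM by the test of that difference, and grey lines did not pass. Peroxisomal genes all climb, whereas 1 of the 19 cholesterol synthesis genes does and 7 decline.

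By ST assay, a second set of libraries from the same lysates and no independent replicate, 176 of 1760 genes were DEGs (10%). Both assays tested 1603 genes. Of the 168 WT DEGs among them with the same sign in both batches, 166 had the same sign by ST assay and 90 were DEGs there too. Of the 15 cholesterol synthesis genes tested by ST assay 13 rose, among them Idi1 (L2FC 1.25), Sqle (1.00), Fdps (0.95), Insig1 (0.87) and Fdft1 (0.74), where 5.34% of ST genes rose. Of 11 fatty acid synthesis genes 7 rose. Some lists differed in their calls from the WT assay. By ST assay 3 of 10 interferon stimulated genes, Psmb8 among them, and 3 of 11 chemokines and NF-kB feedback genes, Cxcl16 among them, fell, as did 1 of 10 p53 targets, 1 of 10 immediate early factors and 1 of 14 acute phase proteins, where 4.66% of ST genes fell. Of 14 NRF2 antioxidant genes and 14 CAR and PXR targets 1 each rose. Tsku (1.48), Ces1d, Sult2a2 (1.90), Amy1a (1.03) and Acat2 (1.08) were ST DEGs as well, while Ehhadh (0.77, adjusted p = 0.264) and A2m (0.51, adjusted p = 0.06) did not pass.

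By WT assay a well had 2289425 to 8975207 reads over the series, where the 12 µM wells had 3619719 to 7988924 and the vehicle wells 5492941 to 8264980. On the ST assay the 12 µM wells had 643035 to 2058759 reads.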

How the data were processed

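TempO-Seq libraries of the WT and ST assays were made from well lysates of rat hepatocytes. The authors aligned reads to rn6 with STAR 2.5.3a and deposited raw counts per probe and well. Here, counts of probes with the same symbol were summed, genes averaging 10 or more counts over the wells of an assay were kept (10191 WT, 1760 ST), and counts were scaled by TMM. The quasi-likelihood test of edgeR 4.0.16 in R 4.3.3 was fitted across all wells of an assay, so that all groups shared 1 estimate of the spread, with Benjamini-Hochberg adjustment over all genes tested and a threshold of 0.05. The contrast was fitted over both batches, with batch as a term, and within each batch, and was tested on simulated data. DESeq2 1.42.0, other scaling, filters, references and wells were alternatives.

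The members and gene lists were chosen with earlier results of these data known. The genes named were the 12 with the largest L2FC in each direction, up to 15 called in each batch, up to 3 per list, and Ptgs1 and Ptgs2. Symbols without a standard name were counted but not named unless called in each batch. Levels are compared between wells, not between genes. Sequences are from RefSeq (GRCr8), while the counts rest on rn6, and genes were matched by symbol. A few genes that met these rules are not reported here.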

Additional observations from a re-analysis of the deposited data

Results flagged for a closer look

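The difference in L2FC between batches (batch 2 minus batch 1) passed the test for 5 genes, of which 4 are given here and were named after their values were seen. Hist1h1d, a linker histone, differed by 1.95 (adjusted p = 0.00158), with an L2FC of -0.79 in batch 1 and 1.13 in batch 2. Cyp2a3, a cytochrome P450, differed by -1.33 (adjusted p = 0.0335), with 0.58 and -0.78. Pxmp2, a peroxisomal membrane channel, differed by -0.87 (adjusted p = 0.0034), with 0.78 and -0.12. Rarres2, the secreted protein chemerin, differed by -0.726 (adjusted p = 0.0335), with 0.28 and -0.48. In batch 1 the drug and vehicle wells were on different plates, and the part of the plate in these differences cannot be told apart from that of the batch.

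Among the 6 vehicle wells of batch 2, 1 well stood far from the others by Dixon's criterion for 4 of 65 genes examined, where chance gives about 1 in 20. Replicate 6 was lowest for Fdft1 (36.0 CPM, next 45.4) and Slc16a6 (1.17 CPM, next 1.61) and highest for Igsf3 (8.17 CPM, next 5.42). The same well had the lowest WT read total, 5788931 against 6661700 in the next. Replicate 3 was lowest for Sgo2, at 0.145 CPM with the next at 1.10.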

How the results depend on the processing

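No paired analysis was possible because the labels carry no replicate number to pair wells by, and batch was already a term of the fit. Fitting only 12 µM and vehicle wells gave 1228 WT DEGs over both batches (575 of them among the 598), 108 in each batch and 357 by ST assay. With only same-plate vehicle wells in batch 2, there were 296 in batch 2 and 113 by ST assay. An absolute L2FC of at least 1 left 49 over both batches, 24 in batch 1, 90 in batch 2, 8 in each, 21 by ST assay, 8 cholesterol synthesis genes and 2 fatty acid synthesis genes. Against the 4 other low concentrations there were 54, 42 in batch 1, 20 in batch 2, 7 in each and 10 cholesterol synthesis genes, and L2FC turned to -0.12 for Ehhadh and to 0.18 for Nppb. The cause of these shifts was not tested. RLE scaling gave 591, DESeq2 639 and no filter 422.

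Leaving out 1 well at a time gave 324 to 591 DEGs over both batches, 49 to 162 in batch 1, 172 to 824 in batch 2, 32 to 61 in each batch, 115 to 173 by ST assay, 17 to 19 cholesterol synthesis genes and 6 to 8 fatty acid synthesis genes. Of the 12 µM wells, those that moved a count by over 1.5 times were replicates 1 (batch 1, 83) and 3 (batch 1, 49, each, 32) of batch 1, and replicates 1 (batch 2, 278), 2 (324, batch 2, 172, each, 37, ST, 115) and 3 (batch 2, 824) of batch 2. Of the vehicle wells, leaving out replicate 1, 2 or 3 of batch 1 gave 98, 91 and 87 in batch 1, and 33 in each batch without replicate 3. Ptgs1, not called, ranged from -0.14 to 0.17, with -0.14 without replicate 3 of 12 µM in batch 2 and -0.04 without vehicle replicate 1 of batch 1. Of 1535 values of 65 named genes under the alternatives, 1285 kept direction and call, 246 kept direction only and 4 reversed. Of the 65 genes, 51 lost their call under at least 1 alternative: 44 against the other low concentrations, 39 in batch 1 alone, 24 with 1 well left out, 17 with same-plate vehicle wells, 12 in batch 2 alone, 11 with no filter, 10 of 40 by ST assay and 1 with DESeq2. Genes under a mean of 10 counts were left out by the filter chosen here, and without it 20697 genes were tested.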
